A study of Mus musculus with 12 samples.

Results

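The 45 genes described here were interferon-stimulated genes outside the Ifit cluster, that is, genes whose transcription is switched on by interferons and that do not belong to the Ifit family. Their rows were taken by symbol, by a rule that itself used no measured value, and all 45 were found among the 41388 genes of the deposited count table. The list was, however, chosen with earlier results of these data known. For that reason the shares of members below are set beside those of all genes with no test of the set. The RNA came from the prefrontal cortex (PFC) of male Swiss Webster mice aged 10 weeks. Conventionally raised mice (CON) carried a normal microbiota, germ-free mice (GF) were kept in isolators without microbes, and exGF mice began life germ-free and were moved to the standard animal unit on postnatal day 21, where environmental microbes colonized them. Each group had 4 libraries of polyA RNA, and each library was a pool of RNA from 2 to 3 animals, so n = 4 counts pools and not mice. GF mice alone lived in isolators at sampling, so that housing and the absence of microbes cannot be told apart. GF and exGF mice were offspring of germ-free breeding pairs and CON mice of conventional ones. In comparisons with CON, parentage therefore cannot be told apart from the germ-free start.

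Interferons are secreted proteins, many of which cells release when they sense viral or bacterial nucleic acid. They bind receptors whose Janus kinases phosphorylate transcription factors such as STAT2, which acts with IRF9 in a complex that binds the interferon-stimulated response element (ISRE) in the promoters of many antiviral genes. A low level of such genes is present in healthy brain without infection, in microglia and endothelial cells as well as in astrocytes and neurons.

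The libraries held 22757169 to 29134760 counts on genes in CON, 13280926 to 23465074 in GF and 22702599 to 28615407 in exGF, with the fewest in GF replicate 1. Between libraries within a group, counts varied more than sampling noise alone gives (chi-square per gene 8.73 to 37.3 on average). Levels below are counts on genes scaled to a common library size with TMM factors (CPM), and values in a group are listed in the order of replicates 1 to 4, which for exGF are the columns GFR1 to GFR4. Neuronal genes, Snap25, Slc17a7 and Gad1 among them, summed to 11294 to 13797 CPM over the libraries. The samples were bulk tissue, in which fewer cells of a type and less RNA per cell cannot be told apart.

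Levels were compared between genes per kilobase of exon. Adar, which edits adenosine to inosine in double-stranded RNA, had the highest level in CON at 22.4 CPM per kilobase, followed by Ifitm3 (16.03) and Ifitm2 (13.1), membrane proteins that block the entry of viruses. Zbp1, a sensor of nucleic acid in the Z form, had the lowest at 0.0951 CPM per kilobase. The members' CPM summed to 463 to 493 in CON, 434 to 473 in GF and 461 to 493 in exGF, sums in which the few abundant members outweigh the rest.

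**Figure D1:**
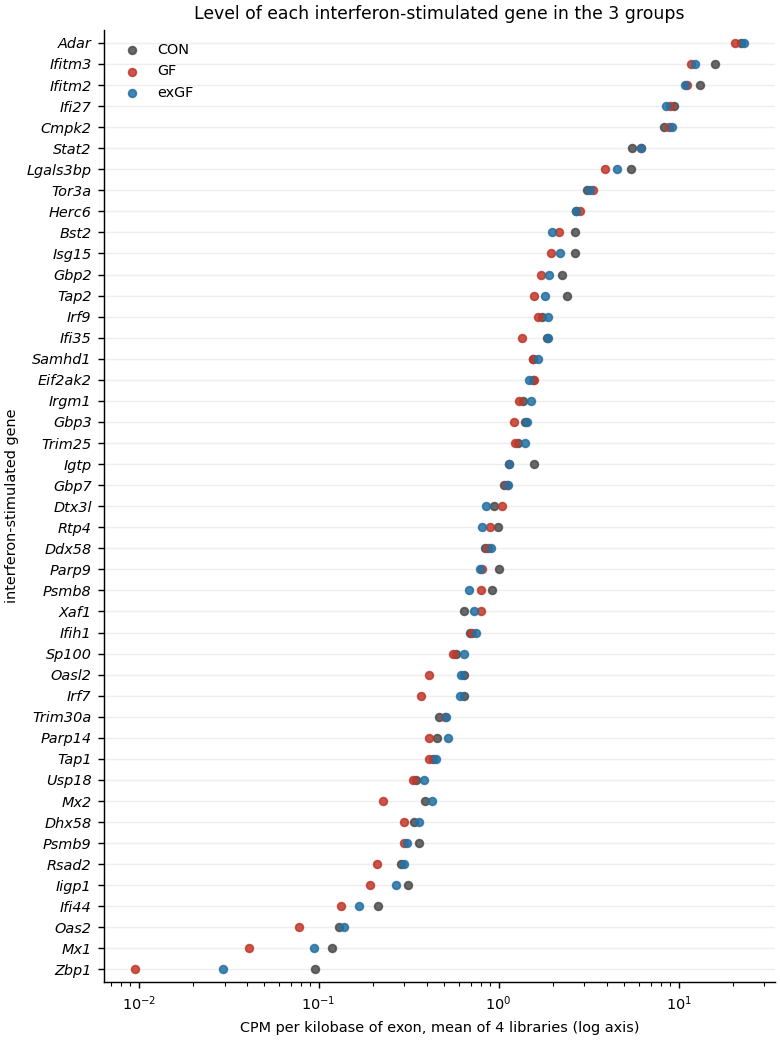
Mean level of each of the 45 interferon-stimulated genes over the 4 libraries of CON, GF and exGF, in CPM per kilobase of exon on a log axis, ordered by level. Adar stands highest at 22.4 CPM per kilobase in CON and Zbp1 lowest at 0.0951, and GF is the leftmost point for Zbp1, Mx1, Oas2, Mx2 and Irf7.

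Promoter windows from RefSeq (GRCm38.p6) were at hand for 32 of the 45 members. Each window ran from 250 bases before the start of the transcript to 50 bases after it and was searched on both strands for the ISRE core GAAANNGAAA and for the interferon-gamma activated site (GAS), TTCNNNGAA. The ISRE core was found in 15 of the 32 (46.9%), against 3.99% of the 27025 genes with a window, and the GAS letters in 9 of the 32 (28.1%), against 9.55%. A match describes the letters in the window and is not a binding site shown by these data. The windows of the members to which the results below return are printed here from 250 bases before the start to 30 after it, on the strand of the gene, with every ISRE core in capitals. Isg15 is shown as a member with overlapping copies of the core, Ifitm3 and Gbp2 as members with it and an unadjusted p under 0.05 between CON and GF, and Irf7, Oasl2 and Lgals3bp as members with such a p and without the core.
Isg15, chr4:156200789-156201068, minus strand: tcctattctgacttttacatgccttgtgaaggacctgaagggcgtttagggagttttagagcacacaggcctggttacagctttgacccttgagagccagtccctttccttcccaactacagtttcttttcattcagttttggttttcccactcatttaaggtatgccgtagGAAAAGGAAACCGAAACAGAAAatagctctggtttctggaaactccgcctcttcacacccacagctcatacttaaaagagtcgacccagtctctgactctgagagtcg
Ifitm3, chr7:141010715-141010994, minus strand: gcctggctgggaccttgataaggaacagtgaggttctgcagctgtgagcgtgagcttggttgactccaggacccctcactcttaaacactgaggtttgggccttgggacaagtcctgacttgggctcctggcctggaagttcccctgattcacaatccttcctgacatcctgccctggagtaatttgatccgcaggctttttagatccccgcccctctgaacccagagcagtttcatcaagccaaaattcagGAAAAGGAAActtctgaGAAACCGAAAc
Gbp2, chr3:142620413-142620692, plus strand: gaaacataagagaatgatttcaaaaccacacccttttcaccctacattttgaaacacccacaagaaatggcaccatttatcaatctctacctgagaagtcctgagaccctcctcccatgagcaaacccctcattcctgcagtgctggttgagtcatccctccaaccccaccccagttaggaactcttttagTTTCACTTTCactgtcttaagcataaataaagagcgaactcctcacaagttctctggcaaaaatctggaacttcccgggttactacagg
Irf7, chr7:141266395-141266674, minus strand: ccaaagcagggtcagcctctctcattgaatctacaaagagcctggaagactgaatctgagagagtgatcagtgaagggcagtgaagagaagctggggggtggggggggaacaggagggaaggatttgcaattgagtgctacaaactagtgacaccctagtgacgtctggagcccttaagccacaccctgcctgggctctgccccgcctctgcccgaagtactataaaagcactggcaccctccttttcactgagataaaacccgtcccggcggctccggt
Oasl2, chr5:114896684-114896963, plus strand: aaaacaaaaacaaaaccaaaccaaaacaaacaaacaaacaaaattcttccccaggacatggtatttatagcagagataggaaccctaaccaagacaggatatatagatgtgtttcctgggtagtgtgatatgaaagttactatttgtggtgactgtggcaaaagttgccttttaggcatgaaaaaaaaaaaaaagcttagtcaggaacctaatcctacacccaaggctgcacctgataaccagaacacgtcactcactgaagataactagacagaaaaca
Lgals3bp, chr11:118401930-118402209, minus strand: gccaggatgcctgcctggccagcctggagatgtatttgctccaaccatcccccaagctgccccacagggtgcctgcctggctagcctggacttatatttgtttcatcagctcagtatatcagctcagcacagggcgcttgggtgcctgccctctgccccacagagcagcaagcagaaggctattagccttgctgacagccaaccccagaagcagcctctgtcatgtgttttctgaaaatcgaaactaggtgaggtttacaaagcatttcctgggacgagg

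Absence of microbes throughout life was examined by comparing GF with CON. Most of the interferon-stimulated genes had lower levels in GF, by a small margin, and none passed the edgeR test. Of the 43 members with enough counts to be tested, 32 (74.4%) had a negative log2 fold change, against 48.3% of all 15542 genes tested, and the median log2 fold change was -0.16 over the members and 0.01 over all genes. None of the 43 was called: 0 passed edgeR's quasi-likelihood test at a Benjamini-Hochberg adjusted p under 0.1, a threshold that 0.251% of all genes passed. An unadjusted p under 0.05 was found for 8 members (18.6%), against 8.69% of all genes, and all 8 were lower in GF (3.94% of all genes). These 8 were Lgals3bp, Tap2, Irf7, Oasl2, Ifitm3, Gbp2, Mx2 and Iigp1.

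The call for Lgals3bp depended on the tool and the filter. DESeq2 on the same libraries called 1 of 45 members, Lgals3bp (adjusted p = 0.0147), among 1.19% of all genes, and 10 members had an unadjusted p under 0.05 there (8.23% of all genes). It was also the member called by edgeR without a filter on low counts (adjusted p = 0.0656, 0.906% of all genes called) and by an edgeR fit of all 12 libraries (adjusted p = 0.0864, 0.243% of all genes called). Without CON replicate 2, the median over the members was -0.062 and the count with an unadjusted p under 0.05 was 4, and without GF replicate 1, the median was -0.25.

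Every GF library lay below every CON library for Gbp2, Irf7, Lgals3bp and Oas2, 4 of the 43 tested members (9.30%), against 2.55% of all genes tested. Among members with too few counts for edgeR's filter in this comparison, the same held for Mx1 and Zbp1. No member lay above CON in every GF library, against 2.53% of all genes.

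Averaged over the 45 members, the log2 CPM of GF relative to the CON mean was -0.31 with an SD of 0.07 (n = 4, -0.35 to -0.21), while the 4 CON libraries spread from -0.13 to 0.06 (SD 0.09). The exGF mean lay between them at -0.10 (SD 0.08, n = 4, -0.18 to -0.03). GF and CON libraries did not overlap on this mean, whereas exGF and CON did. GF and exGF did not overlap either, but the highest GF library (-0.21) came close to the lowest exGF library (-0.18). The mean gives each gene the same weight, so genes of low level count as much as abundant ones. Zbp1 and Mx1, which did not pass edgeR's filter between CON and GF, enter it with a lowest GF count of 0, where the prior count sets the log2 value. For Zbp1 the lowest exGF count was 0 as well. The median log2 fold change of the tested members was -0.16 in GF against CON. In exGF against CON it was 0.02, with 23 of 44 values positive, so that median did not place exGF below CON.

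Several marker lists of other cells also had lower mean values in GF. A list of 12 blood leukocyte genes, 6 of them tested, had a summed level of 5.86 to 8.87 CPM in CON, 4.35 to 4.88 CPM in GF and 4.92 to 7.77 CPM in exGF. Its mean log2 CPM relative to CON was -0.79 in GF (SD 0.25, n = 4) and -0.21 in exGF (SD 0.33, n = 4). The members also had this order of CON, exGF, GF on that mean, although the median log2 fold change of the tested members in exGF against CON was 0.02. The same order of means was held by the meningeal list (-0.51 in GF, SD 0.24, and -0.45 in exGF, SD 0.15). It was also held by the choroid plexus list (-0.17, SD 0.72, and -0.11, SD 0.47). In both lists the GF and exGF libraries overlapped. The choroid plexus values in GF ran from -0.78 to 0.86, and the highest, GF replicate 1, was above every other library. EdgeR called 0 of the 6 tested leukocyte genes in GF against CON and gave 3 an unadjusted p under 0.05 (Ngp, S100a9 and Ccr2), while DESeq2 called 1, S100a8. Of the defining leukocyte markers Ptprc, Cd3e and S100a8, Cd3e and S100a8 had 0 counts in at least 1 library each.

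Meningeal fibroblast genes summed to 207 to 294 CPM in CON, 139.5 to 194 CPM in GF and 164 to 209 CPM in exGF, and all 12 had a negative log2 fold change in GF and in exGF against CON, with an unadjusted p under 0.05 for 7 and 9 of them. Of all genes tested by edgeR, 8.69% had such a p in GF and 5.33% in exGF against CON. In GF edgeR called 2, Slc6a13 and Col1a2 (adjusted p = 0.0120 and 0.0168), and DESeq2 called these and Igf2. In exGF edgeR called 0 and DESeq2 1, Col1a2. Microglial genes summed to 523 to 623 CPM in CON, 476 to 534 CPM in GF and 431 to 488 CPM in exGF, and 1 of 14, C1qb, was called lower in GF by edgeR (adjusted p = 0.0307). By DESeq2 C1qb was called lower in GF and in exGF, and 8 of 14 had an unadjusted p under 0.05 in exGF by each tool. Choroid plexus genes summed to 9.14 to 9.82 CPM in CON (median 9.51), 5.05 to 18.1 CPM in GF (median 5.95) and 5.55 to 10.3 CPM in exGF (median 8.16). Of the 5 tested in GF, 4 had a negative log2 fold change, edgeR called 0 with an unadjusted p under 0.05 for 1, and DESeq2 called 1, Kl, lower. The part of these cells in the levels of the interferon-stimulated genes was not tested. Of the lists that were not lower in GF, the 13 endothelial genes summed to 473 to 555 CPM in CON, 508 to 545 CPM in GF and 513 to 569 CPM in exGF, and 0 were called in GF by edgeR or DESeq2, with an unadjusted p under 0.05 for 4 by each tool. By edgeR 2 of these 4 were lower in GF and 2 higher. Oligodendrocyte genes summed to 2102 to 2591 CPM in CON, 3254 to 5461 CPM in GF and 2082 to 3498 CPM in exGF, and 6 of 10 were called higher in GF by edgeR. For 12 neuronal and 10 astrocyte genes the mean log2 CPM of GF relative to CON was 0.10 and 0.01, and edgeR called none, with an unadjusted p under 0.05 for 2 and 1 of them, while DESeq2 called 2 neuronal genes.

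**Figure D2:**
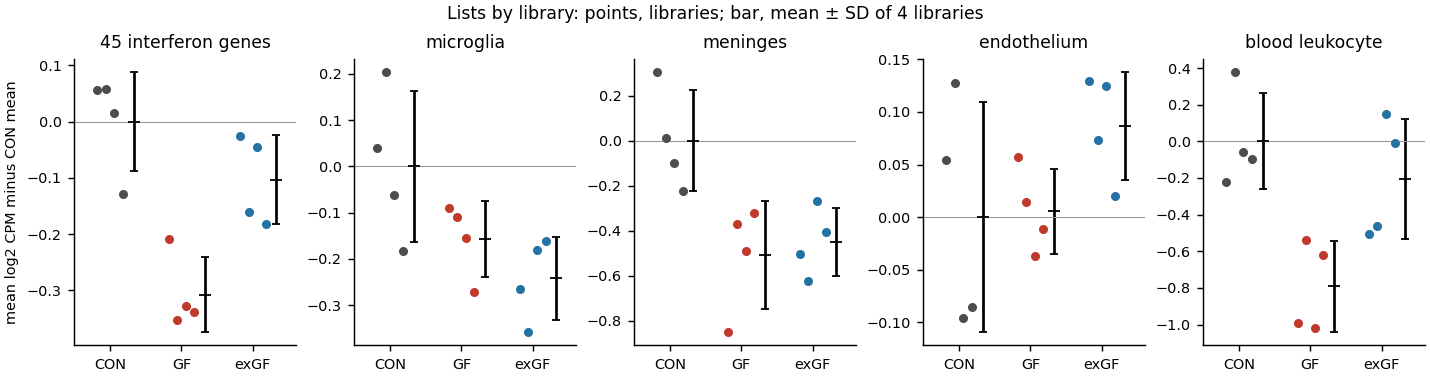
Mean log2 CPM of the 45 interferon-stimulated genes and of 4 marker lists in each library, relative to the CON mean; points are libraries, and bars give the mean and SD of 4. The 45 genes averaged -0.31 in GF and -0.10 in exGF, the leukocyte list -0.79 and -0.21 and the meningeal list -0.51 and -0.45. The microglial list was at -0.16 and -0.24 and the endothelial list at 0.01 and 0.09.

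The members were also described by level, with no test between the lower and higher levels. Of the 21 tested members with a mean below 4.40 CPM, 19 had a negative log2 fold change in GF with a median of -0.31, while the 3579 genes of the same range had a median of -0.03. The 22 members at or above that level had 13 negative values and a median of -0.06, against 0.01 for 10574 genes. Each of these sets held 4 of the members with an unadjusted p under 0.05 by edgeR. Of all genes tested, 48.3% had a negative value and 8.69% such a p, shares that are not given here by level. The 4 members with the highest CPM in CON, Adar, Cmpk2, Stat2 and Herc6, had log2 fold changes of -0.11, 0.09, 0.16 and 0.08.

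Mice colonized after weaning (exGF) were compared with CON. Both groups carried microbes and lived in the standard animal unit at sampling, and exGF mice differed in their breeding pairs and germ-free start. Members were placed on both sides of 0: 21 of 44 (47.7%) had a negative log2 fold change, against 52.1% of all 15813 genes tested, with a median of 0.02 beside -0.01 for all genes. That median was -0.061 to 0.046 when a library was left out, and it was negative without CON replicate 2, CON replicate 3, CON replicate 4, GFR1, GFR2 or GFR3. No member was called by edgeR, where 0.0696% of all genes were, or by DESeq2, where 0.264% were. In the edgeR fit 4 members (9.09%) had an unadjusted p under 0.05, against 5.33% of all genes, namely Lgals3bp, Parp9, Ifitm3 and Tap2, all of them lower in exGF (2.87% of all genes), and DESeq2 gave 5 (4.40% of all genes). That count ranged from 0 without GFR2 to 7 without CON replicate 4, with 1 without CON replicate 1 and 2 without CON replicate 2, CON replicate 3, GFR1 or GFR3. Each exGF library was below each CON library for Lgals3bp and Parp9, 2 of 44 tested (4.55%), against 1.52% of all genes, and also for Zbp1, which did not pass edgeR's filter on low counts and was the fifth member by DESeq2.

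The exGF group was set against GF to compare colonized with uncolonized mice that shared a germ-free start. Of 43 tested members, 29 had a positive log2 fold change and 14 (32.6%) a negative one, against 51.3% negative among all 15569 genes tested, and the median was 0.14 beside -0.0047 for all genes. Neither edgeR nor DESeq2 called any member, and edgeR called no gene at all (0.00%), while DESeq2 called 0.118%. An unadjusted p under 0.05 was given by edgeR to 6 members (14.0%), against 6.65% of all genes, and by DESeq2 to 5 (6.37% of all genes). These 6, Oasl2, Irf7, Mx2, Ifi35, Lgals3bp and Adar, were higher in exGF (3.30% of all genes). Their number was 3 without GF replicate 3, GF replicate 4 or GFR3. Adar, Irf7, Lgals3bp and Oasl2 did not overlap between the groups, 4 of 43 (9.30%), against 1.77% of all genes. The GF libraries enter this comparison and that with CON, so the values of the 2 comparisons are not independent.

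Over the 3 groups, Lgals3bp alone among 43 members had every CON library above every exGF library and every exGF library above every GF library, an order held by 4 of 15379 genes (0.0260%). Irf7 and Lgals3bp had every CON and every exGF library above every GF library, as 47 genes did (0.306%).

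**Figure D3:**
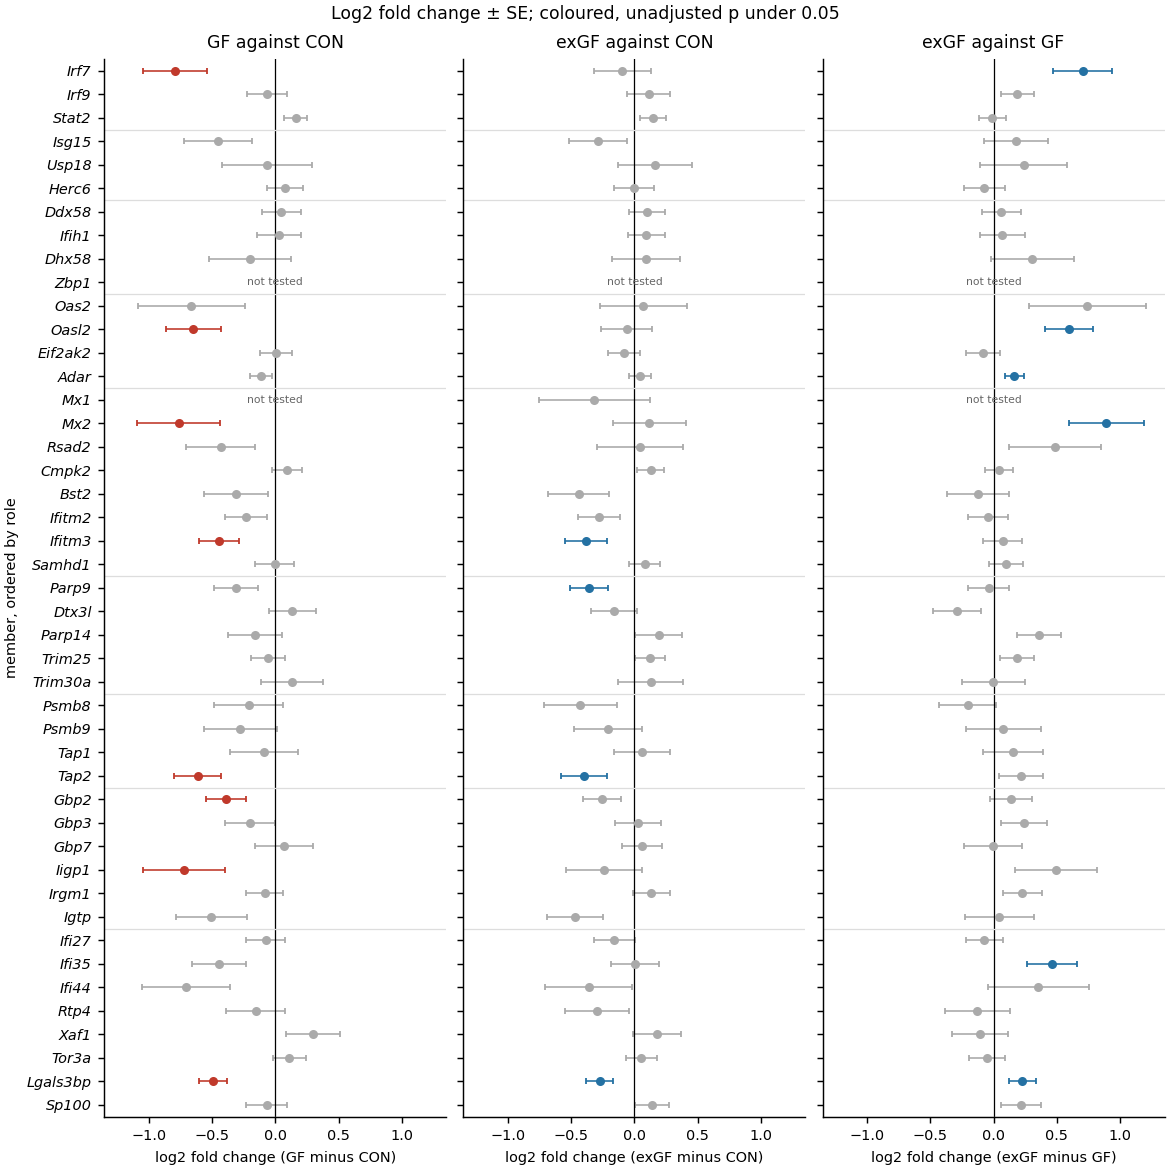
Log2 fold change and standard error of each interferon-stimulated gene in the 3 comparisons, from edgeR, ordered by role; colour marks an unadjusted p under 0.05. In GF against CON 32 of 43 values lie left of 0, in exGF against CON 21 of 44, and in exGF against GF 14 of 43; all 8, 4 and 6 coloured genes lie on 1 side of 0 in their panel.

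The 3 transcription factors of the pathway differed in their values. Irf7, which amplifies interferon production and is itself interferon-induced (ENSMUSG00000025498, chr7:141262706-141266481, minus strand), was at 3.08, 2.39, 2.62 and 1.68 CPM in CON, 1.26, 1.66, 1.18 and 1.49 CPM in GF and 1.99, 2.63, 2.65 and 1.91 CPM in exGF. Every GF library was below every CON and every exGF library. The log2 difference from CON was -0.79 (SE 0.25, adjusted p = 0.346) in GF and -0.10 (SE 0.23, adjusted p = 0.994) in exGF, and that of exGF against GF was 0.70 (SE 0.23, adjusted p = 0.736), all from edgeR. Only 17 to 37 counts in GF and 44 to 77 in CON stand behind these values.

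Irf9 (ENSMUSG00000002325, chr14:55603571-55610030, plus strand), the subunit of the complex that recognizes the ISRE, was at 7.59, 12.6, 8.32 and 8.91 CPM in CON, 9.74, 8.95, 8.97 and 8.15 CPM in GF and 8.90, 11.9, 9.22 and 10.7 CPM in exGF. The 3 groups overlapped, with CON replicate 2 the highest library. Its log2 fold changes were -0.06 (SE 0.16, adjusted p = 0.941) in GF and 0.11 (SE 0.17, adjusted p = 0.983) in exGF against CON, and 0.19 (SE 0.13, adjusted p = 0.788) between exGF and GF by edgeR, and the first of these was 0.11 without CON replicate 2. Stat2 (ENSMUSG00000040033, chr10:128270559-128292849, plus strand), which joins Irf9 in that complex, was at 30.8, 33.2, 35.1 and 32.3 CPM in CON, 40.6, 33.9, 37.5 and 35.4 CPM in GF and 41.1, 36.9, 38.2 and 29.95 CPM in exGF. The groups overlapped. By edgeR, the log2 fold change was 0.16 (SE 0.09, adjusted p = 0.643) in GF and 0.14 (SE 0.10, adjusted p = 0.966) in exGF against CON. Between exGF and GF it was -0.01, and it was positive under 3 alternatives.

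Members of the ISG15 system attach a ubiquitin-like protein, Isg15, to other proteins and remove it. None of the 3 had an unadjusted p under 0.05 in any comparison. Herc6, the ligase that attaches Isg15 in mice (ENSMUSG00000029798, chr6:57581000-57664632, plus strand), had the highest level per kilobase of the 3 and was at 25.3, 20.5, 23.6 and 30.3 CPM in CON, 21.5, 33.2, 24.8 and 25.6 CPM in GF and 29.2, 27.5, 25.8 and 17.7 CPM in exGF. These libraries overlapped in all comparisons, with log2 fold changes of 0.08 (SE 0.14, adjusted p = 0.916) in GF and -0.0032 (SE 0.15, adjusted p = 0.999) in exGF against CON by edgeR. Isg15 itself had a mean of 1.998 ± 0.465 CPM (SD, n = 4) in CON, 1.48 ± 0.345 CPM (SD, n = 4) in GF and 1.65 ± 0.222 CPM (SD, n = 4) in exGF, with a log2 fold change of -0.45 (SE 0.27, adjusted p = 0.666) in GF against CON by edgeR. The groups of Isg15 overlapped, on 24 to 30 counts in GF and 37 to 74 in CON. Usp18, which removes Isg15 and damps receptor signalling, had log2 fold changes of -0.06 in GF and 0.16 in exGF against CON.

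Among sensors of nucleic acid, the RNA helicase Ddx58 (RIG-I) (ENSMUSG00000040296, chr4:40203773-40239828, minus strand) had the highest level per kilobase and was at 6.07, 5.16, 5.86 and 6.74 CPM in CON, 6.39, 6.76, 6.39 and 5.12 CPM in GF and 7.33, 5.61, 7.17 and 5.58 CPM in exGF. The 3 groups overlapped. On the log2 scale it differed by 0.05 (SE 0.15, adjusted p = 0.954) in GF and 0.10 (SE 0.14, adjusted p = 0.982) in exGF against CON by edgeR, and the values of Ifih1 (MDA5), which senses long double-stranded RNA, were 0.03 and 0.09. Dhx58 (LGP2), a regulator of both helicases, had -0.20 and 0.09, with about 1 CPM in every group.

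Zbp1 (ENSMUSG00000027514, chr2:173206612-173218923, minus strand), which senses Z-form nucleic acid and can trigger cell death, had too few counts to pass edgeR's filter in any comparison. It had 10, 7, 13 and 5 counts in CON, 0, 3, 0 and 0 in GF and 0, 4, 4 and 3 in exGF. All GF and all exGF libraries were below all CON libraries in CPM. Summed over libraries and scaled for depth, GF had 0.122 times the CON level (95% counting interval 0.0240 to 0.387) and exGF 0.310 times (0.142 to 0.624), intervals that cover counting error only. Without a filter on low counts, the adjusted p of GF against CON was 0.206 by edgeR and 0.274 by DESeq2, and that of exGF against CON was 0.802 by edgeR and 0.991 by DESeq2.

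Of the effectors that act on double-stranded RNA, Oasl2 (ENSMUSG00000029561, chr5:114896936-114912234, plus strand), a relative of the oligoadenylate synthetases, was at 3.77, 4.82, 4.91 and 2.82 CPM in CON, 2.82, 2.10, 2.68 and 2.86 CPM in GF and 4.02, 3.50, 4.84 and 3.37 CPM in exGF. The highest GF library stood slightly above the lowest CON library, and every exGF library was above every GF library. The log2 fold change was -0.65 (SE 0.22, adjusted p = 0.380) in GF and -0.06 (SE 0.20, adjusted p = 0.997) in exGF against CON, and 0.60 (SE 0.19, adjusted p = 0.736) in exGF against GF, by edgeR. Oas2, a synthetase that activates RNase L, had at most 24 counts in a library and was lower in all 4 GF libraries than in any CON library. In edgeR this difference was -0.66 (SE 0.42, adjusted p = 0.696) on the log2 scale.

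Adar (ENSMUSG00000027951, chr3:89715022-89753446, plus strand) was the most abundant member, at 174, 162, 182 and 208 CPM in CON, 175, 163, 160.3 and 173 CPM in GF and 178, 190.4, 198 and 186 CPM in exGF. GF overlapped CON and stood below every exGF library, by a margin that was small beside that of Oasl2. Its log2 difference was -0.11 (SE 0.09, adjusted p = 0.758) in GF against CON and 0.16 (SE 0.07, adjusted p = 0.739) in exGF against GF by edgeR, and 16.8% of its exon bases are also covered by Chrnb2, an overlapping gene that unstranded counting does not separate. Eif2ak2 (PKR), a kinase that halts translation, had log2 fold changes of 0.01 in GF and -0.08 in exGF against CON.

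Antiviral effectors gave 2 of the 8 members with an unadjusted p under 0.05 in GF. Ifitm3 (ENSMUSG00000025492, chr7:141009586-141010770, minus strand) was at 10.3, 14.1, 10.2 and 8.91 CPM in CON, 6.62, 8.95, 8.38 and 7.76 CPM in GF and 8.20, 6.43, 9.22 and 9.53 CPM in exGF. Its GF libraries overlapped CON only at the lowest CON library, and its exGF libraries spanned the GF range. The edgeR log2 fold change was -0.45 (SE 0.16, adjusted p = 0.409) in GF and -0.39 (SE 0.17, adjusted p = 0.903) in exGF against CON, and 0.07 (SE 0.15, adjusted p = 0.930) in exGF against GF. The value of exGF against CON was -0.23 without CON replicate 2. Its promoter holds 2 ISRE cores after the start site. A share of 14.2% of its 31-base words also occurs in other genes, which makes its count uncertain. Ifitm2, its neighbour, had -0.23 and -0.28 in GF and exGF. In the annotation used, 40.9% of its exon bases overlap another gene, but reads were counted on a different annotation. Whether that overlap affects its count was not tested.

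Mx2 (ENSMUSG00000023341, chr16:97535308-97560900, plus strand), a dynamin-like GTPase that is annotated as a polymorphic pseudogene, was at 1.52, 1.79, 1.53 and 0.799 CPM in CON, 0.743, 0.761, 0.644 and 1.16 CPM in GF and 1.86, 1.64, 1.06 and 1.60 CPM in exGF. The lowest CON library, replicate 4, lay within the GF range, and GF replicate 4 within the exGF range. In the edgeR fits its log2 difference was -0.76 (SE 0.33, adjusted p = 0.535) in GF and 0.12 (SE 0.29, adjusted p = 0.995) in exGF against CON, and 0.89 (SE 0.29, adjusted p = 0.736) in exGF against GF, on 10 to 21 counts in GF.

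Its neighbour Mx1 (ENSMUSG00000000386, chr16:97447035-97462907, minus strand) passed edgeR's filter on low counts only between CON and exGF, where the log2 fold change was -0.32 (SE 0.44, adjusted p = 0.978). It had 13, 9, 9 and 15 counts in CON, 4, 0, 5 and 1 in GF and 11, 3, 16 and 8 in exGF. Every GF library was below every CON library in CPM, and the summed level of GF was 0.310 times that of CON (95% counting interval 0.139 to 0.622) and that of exGF 2.63 times that of GF (1.28 to 5.91), intervals that cover counting error only. Without the filter, the adjusted p of GF against CON was 0.537 by edgeR and 0.566 by DESeq2, and that of exGF against GF was 0.788 by edgeR and 0.869 by DESeq2. Mx1 and Mx2 share 7.22% and 7.96% of their 31-base words.

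The other antiviral members did not reach an unadjusted p under 0.05 in any comparison. Rsad2 (viperin), which makes a chain-terminating nucleotide, had log2 fold changes of -0.43 in GF and 0.04 in exGF against CON, and its neighbour Cmpk2, a mitochondrial nucleotide kinase, 0.09 and 0.13. Bst2 (tetherin), which holds budding virus at the cell surface, had -0.31 and -0.44. Samhd1, which breaks down nucleotides, had -0.01 and 0.08.

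Of the 5 members grouped as ligases of ubiquitin and ADP-ribose, Parp9 alone had an unadjusted p under 0.05, in exGF against CON. Parp9 (ENSMUSG00000022906, chr16:35938470-35972605, plus strand) was at 5.82, 4.39, 5.11 and 4.38 CPM in CON, 3.27, 3.76, 4.51 and 4.29 CPM in GF and 3.56, 4.01, 3.67 and 4.19 CPM in exGF. All exGF libraries lay below all CON libraries, and GF overlapped both. By edgeR, the log2 fold change was -0.31 (SE 0.17, adjusted p = 0.643) in GF and -0.36 (SE 0.15, adjusted p = 0.894) in exGF against CON. Its partner Dtx3l, an E3 ligase whose gene lies on the opposite strand and overlaps 9.40% of the exon bases of Parp9, had 0.14 and -0.16, so that the 2 genes of this pair had opposite signs in GF. Trim25 (ENSMUSG00000000275, chr11:88999376-89020293, plus strand), which activates RIG-I and had the highest level per kilobase of these ligases, was at 7.71, 7.33, 7.67 and 6.85 CPM in CON, 7.95, 7.61, 6.50 and 6.39 CPM in GF and 7.04, 8.37, 8.47 and 8.41 CPM in exGF. Its groups overlapped, with log2 fold changes of -0.06 in GF and 0.12 in exGF against CON. Parp14 had -0.16 and 0.19, and Trim30a 0.13 and 0.13.

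Antigen processing was represented by 4 genes that lie side by side on chromosome 17, and all 4 had a negative log2 fold change in GF. Tap2 (ENSMUSG00000024339, chr17:34203527-34216321, plus strand), a subunit of the transporter that carries peptides to MHC class I molecules, was at 10.99, 9.46, 6.27 and 9.67 CPM in CON, 7.28, 4.88, 6.23 and 5.56 CPM in GF and 5.22, 7.17, 7.17 and 7.998 CPM in exGF. CON replicate 3 was low and overlapped GF and exGF, while the other 3 CON libraries were above every library of both groups. On the log2 scale it differed by -0.61 (SE 0.18, adjusted p = 0.313) in GF and -0.40 (SE 0.18, adjusted p = 0.924) in exGF against CON by edgeR, and 18.5% of its exon bases overlap other genes. Tap1, the other subunit, had -0.09 and 0.06, and the immunoproteasome subunits Psmb8 and Psmb9 had -0.21 and -0.28 in GF and -0.43 and -0.21 in exGF, so that Tap2 alone of the 4 had an unadjusted p under 0.05.

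Of 6 GTPases of the Gbp and Irg families, which take part in defence against bacteria and parasites inside cells, 5 had a negative log2 fold change in GF and 3 in exGF against CON. Gbp2 (ENSMUSG00000028270, chr3:142620602-142638008, plus strand) was at 5.45, 6.35, 5.83 and 5.10 CPM in CON, 4.98, 4.70, 3.70 and 4.02 CPM in GF and 4.85, 4.96, 3.88 and 5.41 CPM in exGF. No GF library reached the CON range, and exGF overlapped both. Its log2 difference was -0.39 (SE 0.16, adjusted p = 0.499) in GF and -0.26 (SE 0.15, adjusted p = 0.952) in exGF against CON by edgeR. Iigp1 (ENSMUSG00000054072, chr18:60376027-60392634, plus strand) was at 1.56, 1.79, 2.69 and 1.26 CPM in CON, 1.71, 1.07, 0.966 and 0.771 CPM in GF and 2.402, 1.29, 1.34 and 1.23 CPM in exGF. CON replicate 3 and GFR1 were the high libraries of their groups, and all groups overlapped. The edgeR log2 fold change was -0.72 (SE 0.32, adjusted p = 0.558) in GF and -0.24 (SE 0.30, adjusted p = 0.977) in exGF against CON, on 14 to 24 counts in GF, and the first of these was -0.46 without CON replicate 3. Igtp had -0.51 and -0.47 but shares 15.9% of its 31-base words with Irgm2, and Gbp3, Gbp7 and Irgm1 had -0.20, 0.07 and -0.08 in GF.

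Among the other induced proteins, Lgals3bp (ENSMUSG00000033880, chr11:118392751-118402092, minus strand), a secreted glycoprotein that binds galectins, was at 16.4, 14.5, 17.4 and 14.1 CPM in CON, 11.6, 10.5, 10.95 and 11.3 CPM in GF and 13.2, 12.2, 12.9 and 13.6 CPM in exGF. The groups did not overlap in any comparison, and the spread inside a group was small, with SDs of 1.57, 0.463 and 0.606 CPM around means of 15.6, 11.1 and 13.0 CPM (n = 4 each). In the edgeR fits its log2 difference was -0.49 (SE 0.11, adjusted p = 0.144) in GF and -0.27 (SE 0.11, adjusted p = 0.833) in exGF against CON, and 0.23 (SE 0.10, adjusted p = 0.739) in exGF against GF. Neither another gene nor a shared 31-base word touches its exons in the annotation used.

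Ifi35 (ENSMUSG00000010358, chr11:101448407-101458698, plus strand), a leucine-zipper protein, was at 3.90, 3.50, 2.45 and 3.05 CPM in CON, 1.78, 2.73, 2.47 and 2.37 CPM in GF and 3.52, 2.55, 3.53 and 3.37 CPM in exGF. GF overlapped CON at the lowest CON library, and GFR2 stood apart from the other exGF libraries at a GF level. By edgeR, the log2 fold change was -0.44 (SE 0.22, adjusted p = 0.596) in GF against CON and 0.46 (SE 0.20, adjusted p = 0.739) in exGF against GF. Ifi27 (ENSMUSG00000064215, chr12:103434211-103440239, plus strand), a small mitochondrial protein and the member of this role with the highest level per kilobase, was at 13.2, 18.1, 12.6 and 11.5 CPM in CON, 12.9, 11.01, 13.3 and 15.4 CPM in GF and 12.8, 10.4, 11.3 and 15.4 CPM in exGF. Its groups overlapped, with log2 fold changes of -0.08 in GF and -0.16 in exGF against CON. Ifi44 had -0.70 in GF and -0.36 in exGF on about 1 CPM, Rtp4 -0.15 and -0.29, Xaf1 0.30 and 0.18, Tor3a 0.11 and 0.05, and Sp100 -0.07 and 0.14.

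**Figure D4:**
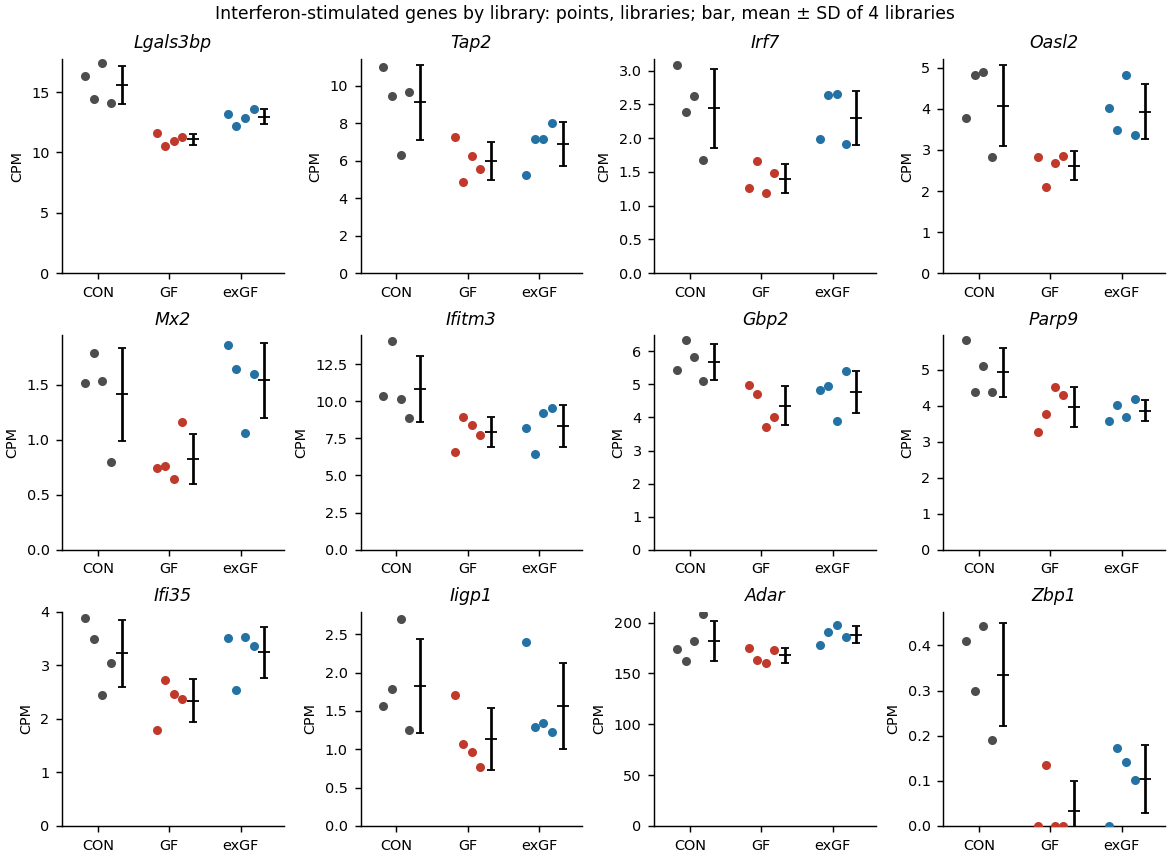
CPM of 12 interferon-stimulated genes in each library; points are libraries, and bars give the mean and SD of 4, with axes that start at 0. Lgals3bp separates all 3 groups with means of 15.6, 11.1 and 13.0 CPM, Irf7 is lowest in GF, and Zbp1 is at 0 in 3 of 4 GF libraries.

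Members with an ISRE core in the window and members without it were set side by side, with no test between them. In GF against CON, the 15 with the core had a median log2 fold change of -0.20 with 9 negative values, and the 17 without it had -0.09 with 13. The unadjusted p by edgeR was under 0.05 for 2 of the 15, Ifitm3 and Gbp2, and for 3 of the 17, Irf7, Oasl2 and Lgals3bp, against 8.69% of all genes. In exGF against CON the medians were 0.03 and 0.01. Such a p was found for Ifitm3 with the core and Lgals3bp without it, against 5.33% of all genes. In exGF against GF the medians were 0.06 and 0.16. The unadjusted p was under 0.05 for 0 of the 15 with the core and for 5 of the 17 without it, Irf7, Oasl2, Adar, Ifi35 and Lgals3bp, against 6.65% of all genes. Whether the motif bears on these counts was not tested.

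The interferons themselves were close to absent from the counts. Of 10 interferon genes of types I, II and III in the table, 8 had 0 counts in every library, and the highest count of any was 2, so none was tested. The 22 genes of receptors and signalling proteins summed to 549 to 604 CPM in CON, 554 to 607 CPM in GF and 552 to 598 CPM in exGF. Of these, 21 were tested, edgeR and DESeq2 called 0 in each comparison, and the medians were -0.05 in GF and -0.06 in exGF against CON. Each tool gave 1 unadjusted p under 0.05, for Irf8 in edgeR, a factor of microglia and other myeloid cells, with a log2 fold change of -0.37 in exGF against CON (edgeR adjusted p = 0.911). Irf1 had log2 fold changes of 0.02 in GF and -0.13 in exGF against CON.

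A second list of interferon-induced genes held 56 symbols that are not members. Of the 54 found in the table, 41 were tested between CON and GF and had a median log2 fold change of -0.19, with 31 negative values, where 48.3% of all genes were negative. In exGF against CON 42 were tested, with a median of -0.06. That of the members was 0.02 but ran from -0.061 to 0.046 with a library left out, so its sign was not stable. In exGF against GF 41 genes of this second list were tested, with a median of 0.14. EdgeR and DESeq2 called 0 of them in each comparison. By edgeR, the unadjusted p was under 0.05 for 5 lower and 1 higher of 41 in GF, against 8.69% of all genes, for 2 lower and 1 higher of 42 in exGF against CON, against 5.33% of all genes, and for 4 higher of 41 in exGF against GF, against 6.65% of all genes. DESeq2 gave 5, 3 and 4 in all.

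Among these, Trim12c had log2 fold changes of -0.79 in GF and -0.69 in exGF against CON (edgeR adjusted p = 0.398 and 0.766). Tgtp2, an immunity-related GTPase, had -1.25 in GF against CON and 1.01 in exGF against GF (edgeR adjusted p = 0.398 and 0.736). Trim21, a cytosolic receptor for antibody-coated virus, had -0.59 in GF, and every GF library was below every CON library. Rnf213, a large ubiquitin ligase, had -0.41 in GF against CON (edgeR adjusted p = 0.424). Gbp4, the 1 gene higher in GF beside the 5 lower, had 0.49 in GF and 0.42 in exGF against CON (edgeR adjusted p = 0.570 and 0.943). Helz2, a helicase, had 0.44 against CON and 0.45 against GF in exGF, and Ifitm1 had -0.50 in exGF against CON. Between exGF and GF, Sp110 had 0.77 and Gbp9 0.40, and the GF libraries of Gbp9 were all below those of exGF.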

How the data were processed

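PFC RNA from 12 pools, 4 a group, was sequenced for the authors at Exiqon after polyA selection and a stranded preparation. Per the labels and the methods of the study, reads were trimmed with Trimmomatic 0.32, aligned to GRCm38.p3 with STAR (2.3.1u in the submitters' processing notes) and counted per gene with HTSeq 0.6.0 without regard to strand. The deposited values were raw counts. Rows for unassigned pairs (4.57% to 7.31% of a library outside genes, 1.10% to 1.32% ambiguous, 13.0% to 19.2% not unique) were left out. The columns GFR1 to GFR4 were taken as exGF, the only group left, and not matched to its replicate numbers.

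Pairs of groups were fitted over the whole table with edgeR 4.0.16 in R 4.3.3 (TMM, filterByExpr, two-sided quasi-likelihood test, Benjamini-Hochberg adjustment), and genes were called at an adjusted p under 0.1. Alternatives were DESeq2 1.42.0, other scaling, filters and models, and each library left out. Log2 CPM used a prior count of 1. Groups sharing a replicate number were checked for pairing (correlation of deviations -0.05 to 0.03), and the numbers did not pair the samples. Symbols, lengths, coordinates and overlaps between genes came from GENCODE M21 (GRCm38), which gave 40340 genes a symbol. The study counted reads on gene models of an Ensembl release, so an overlap in GENCODE M21 may not hold for the counts.

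The members and gene lists were chosen with earlier results of these data known. Values in every library are given for the transcription factors, members with an adjusted p under 0.1 or an unadjusted p under 0.05 in any comparison, and the member of each role with the highest CPM per kilobase in CON. Of the other interferon lists, genes with an adjusted p under 0.1 and, in each comparison, up to 4 a list with an unadjusted p under 0.05 are named. A few others, such as Isg15, Oas2, Zbp1, Mx1 and Gbp4, were named after their values were seen.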

Additional observations from a re-analysis of the deposited data

Results flagged for a closer look

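In 3 of 51 groups of 4 libraries looked at for the members named by rule, 1 library stood far from the other 3 of its group by Dixon's test at the 95% level, and chance gives about 1 in 20. Ifi35 was at 2.55 CPM in GFR2, against 3.37 to 3.53 CPM in the other exGF libraries. Iigp1 was at 2.402 CPM in GFR1, against 1.23 to 1.34 CPM in the other exGF libraries. Trim25 was at 7.04 CPM in GFR1, against 8.37 to 8.47 CPM in the other exGF libraries.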

How the results depend on the processing

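Of the members, edgeR called 0 in GF against CON, and 1 (Lgals3bp) was called without a filter on low counts, by DESeq2 and in the fit of all 12 libraries, with log2 fold changes of -0.51, -0.50 and -0.49; the cause was not tested. Without any one library the count of members called was 0 in each comparison. The median over the members in GF against CON was -0.25 to -0.062 and the number with an unadjusted p under 0.05 was 4 to 10 when a library was left out; in exGF against CON that number was 0 to 7, and in exGF against GF 3 to 7. For all genes called, GF against CON gave 221 without a filter, 204 by DESeq2 and 27 to 60 without a library, exGF against CON 48 without a filter, 7 at a minimum of 10 counts in every library, 60 by DESeq2 and 8 to 14 without a library, and exGF against GF 32 without a filter, 21 by DESeq2, 2 in the fit of all 12 libraries and 0 to 7 without a library. For the 17 members named by rule, 51 log2 fold changes were recomputed to 680 values, of which 640 kept their direction and side of the threshold, 3 (Lgals3bp, above) passed it and 37, in 17 of the 51, changed sign. With a library left out these ran, in GF against CON, as Irf9 -0.15 to 0.11, Herc6 -0.058 to 0.19, Ddx58 -0.013 to 0.13 and Ifi27 -0.16 to 0.078. In exGF against CON, without a CON library, they ran as Irf7 -0.24 to 0.042, Herc6 -0.081 to 0.10, Oasl2 -0.21 to 0.042, Adar -0.0036 to 0.11, Mx2 -0.081 to 0.25, Iigp1 -0.39 to 0.016, Ifi27 -0.24 to 0.0030 and Ifi35 -0.11 to 0.12, with Irf7 0.0038 without GFR4, Herc6 0.15 without GFR4, Oasl2 0.027 without GFR4, Ifi35 -0.018 without GFR1 and Ifi35 -0.036 without GFR3. In exGF against GF, without a GF library, they ran as Stat2 -0.049 to 0.046, Herc6 -0.15 to 0.062, Ddx58 -0.021 to 0.11, Parp9 -0.11 to 0.027 and Ifi27 -0.15 to 0.012, with Stat2 0.075 without GFR4, Herc6 0.061 without GFR4, Ddx58 -0.0089 without GFR1 and Ifi27 0.0030 without GFR2. Signs also turned for Stat2 in exGF against GF at a minimum of 10 counts (0.0016) and for Herc6 in exGF against CON with RLE scaling (0.0023), without a filter (0.0098), by DESeq2 (0.0020) and in the fit of all 12 libraries (0.0033). The median over the members in exGF against CON was -0.061 to 0.046 without a library. With the replicate number as a block, GF against CON gave 51 genes called, 0 members called, a member median of -0.15 and 6 members with an unadjusted p under 0.05, so that no call of a member changed; no pairing was assumed, and no such fit was made for exGF, whose columns carry no matched numbers. The depth of GF, lowest in replicate 1, limits members under about 1 CPM.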
